A study of Caenorhabditis elegans with 2 samples.

Results

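The genes described here are cdc-48.1 and cdc-48.2, the nematode paralogs for p97, in a map of the chromatin sites of the tagged protein ALY-2 in Caenorhabditis elegans. Both were chosen by name, because the region upstream of cdc-48.1 is among the highest in the list made from both replicates, and they are 2 of 19973 nuclear protein-coding genes in the annotation. The height of that region is therefore a description and not a finding, and since every list comes from the same 2 libraries, the values below are given without a test. For each gene, all listed regions were taken whose summit lay inside the gene or within 1000 bp of it. The pooled and replicate lists hold peaks and background together, so a listed region need not be a peak.

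The assay was chromatin immunoprecipitation followed by sequencing (ChIP-seq) on whole third-stage (L3) larvae, which the labels give as male and female pooled. The strain was OP217, with the genotype unc-119(ed3) III; ddIs172, in which the inserted transgene carries eGFP-tagged aly-2, so that all animals also have the unc-119 allele. Both samples are biological replicates of 1 group, with no second condition, and no control library was analysed here. Because whole animals were used, a low height cannot tell binding in few cells from weak binding in many. The labels name aly-2 as the antibody target and also describe the experiment as directed at the tagged protein, and they give no promoter for the transgene.

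p97, called CDC-48 in worms and yeast, is a ring-shaped ATPase of the AAA family. It pulls ubiquitin-tagged proteins out of membranes and complexes, often on their way to the proteasome, and adaptor proteins choose its substrates. In C. elegans it is made from cdc-48.1 and cdc-48.2, whose functions are known to overlap. ALY-2 belongs to a family of adaptors that load messenger RNA for export from the nucleus, and proteins of this family are known to meet transcripts while they are being made.

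The paralogs lie on the same chromosome and differ in structure. The cdc-48.1 gene (WBGene00007352) covers 3372 bp on the minus strand of chromosome II, from 10560036 to 10563407 on ce11. The cdc-48.2 gene (WBGene00008053) covers 2735 bp on the plus strand of chromosome II, from 8138496 to 8141230. Both have 5 exons and 1 annotated transcript. The proteins have 809 and 810 residues, and 720 of 802 aligned residues were identical (89.8%). Of 2406 aligned coding bases 1838 were identical (76.4%).

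The difference in length comes with a difference in introns and in the annotated 3′ untranslated region, of 297 bp in cdc-48.1 and 82 bp in cdc-48.2. Introns 1 and 3 of cdc-48.1, of 278 and 255 bp, each hold a small nucleolar RNA (snoRNA) gene, a guide for the chemical modification of other RNAs. C06A1.9 (10562952 to 10563064) lies in intron 1 and C06A1.8 (10560717 to 10560934) in intron 3, both on the strand of the host gene. All introns of cdc-48.2 are short, between 46 and 59 bp, and hold no annotated gene. Its nearest noncoding gene, C41C4.20, is 4517 bp away, and its nearest snoRNA gene, C41C4.17, is 5465 bp away.

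The sequence upstream of each gene is shown because the highest region of cdc-48.1 lies in it while no region covers that of cdc-48.2. Each is the 300 bases before the annotated 5′ end, read 5′ to 3′ on the strand of the gene from the RefSeq copy of WBcel235, which is the ce11 assembly. The first is chrII:10563408-10563707, minus strand, and the second chrII:8138196-8138495, plus strand. Capitals mark matches to TATAAA on either strand, the only one of 6 searched words that was found.

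cdc-48.1 upstream: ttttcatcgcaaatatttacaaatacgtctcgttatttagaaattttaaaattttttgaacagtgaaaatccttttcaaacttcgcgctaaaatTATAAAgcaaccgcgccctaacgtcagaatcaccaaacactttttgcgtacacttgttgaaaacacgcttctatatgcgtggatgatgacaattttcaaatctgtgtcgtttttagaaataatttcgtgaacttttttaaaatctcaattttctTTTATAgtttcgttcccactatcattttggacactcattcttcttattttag
cdc-48.2 upstream: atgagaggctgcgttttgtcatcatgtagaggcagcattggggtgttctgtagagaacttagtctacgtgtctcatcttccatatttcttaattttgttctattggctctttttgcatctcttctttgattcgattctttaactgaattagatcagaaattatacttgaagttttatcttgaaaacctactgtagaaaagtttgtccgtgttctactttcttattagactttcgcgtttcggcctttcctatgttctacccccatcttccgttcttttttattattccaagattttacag

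The cdc-48.1 window held TATAAA on the gene's strand 206 to 201 bp upstream, inside the pooled region, and on the opposite strand 52 to 47 bp upstream. A match to TATAAA occurred in 39.6% of the 300-base windows upstream of all 19973 genes, so its presence is common. The other words searched on both strands were CACGTG (in 5.74% of windows), GAANNTTC (19%), GTAAACA (5.01%), TTTCAG (48%) and GCGCGC (3.80%), and neither paralog's window held any of them. Some can overlap each other or themselves. The share of G and C was 31% upstream of cdc-48.1 and 36% upstream of cdc-48.2, around the median of 33.3% over all genes. The longest run of bases shared by both windows was 8. Both windows end in AG, as do 27.6% of all, and many worm transcripts are known to be trimmed at such a site when a spliced leader is joined on, so the annotated 5′ end need not be where transcription starts; which applies here was not tested.

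The region upstream of cdc-48.1 was near the top of every list. Heights are the authors' deposited signal values, whose scale the records do not state, so they are compared within a list only. In the pooled list it ran from 10563493 to 10563660 with a height of 156.9, the fourth of 17335 regions (rank 4). It stood at rank 5 of 30000 in replicate 1 (height 68.8) and at rank 5 of 26751 in replicate 2 (height 86.6). Against the median height of each list these were 8.68 times in the pooled list, 7.37 times in replicate 1 and 9.31 times in replicate 2 (8.34 ± 1.37, SD, n = 2 replicates).

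The position was also shared. The summit lay 154 bp upstream of the annotated 5′ end in the pooled list and in replicate 2, and 193 bp upstream in replicate 1, a gap of 39 bp between replicates. In terms of the printed sequence, the pooled region runs from 253 to 86 bp before the gene. It was 168 bp wide, where 17320 of 17335 pooled regions had the full width of 396 bp and a summit in the middle. For nearly all regions, then, the summit is the centre of a window of fixed width. Replicates 1 and 2 listed this same region at their full widths, 376 and 420 bp. Its immediate neighbours in the pooled order, at 158.3 above and 151.0 below, were both on chromosome X. It ranked 2 among autosomal regions in the pooled list and in replicate 2, and 3 in replicate 1. Among regions within 500 bp of a protein-coding 5′ end it ranked 2 in all 3 lists.

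**Figure D1:**
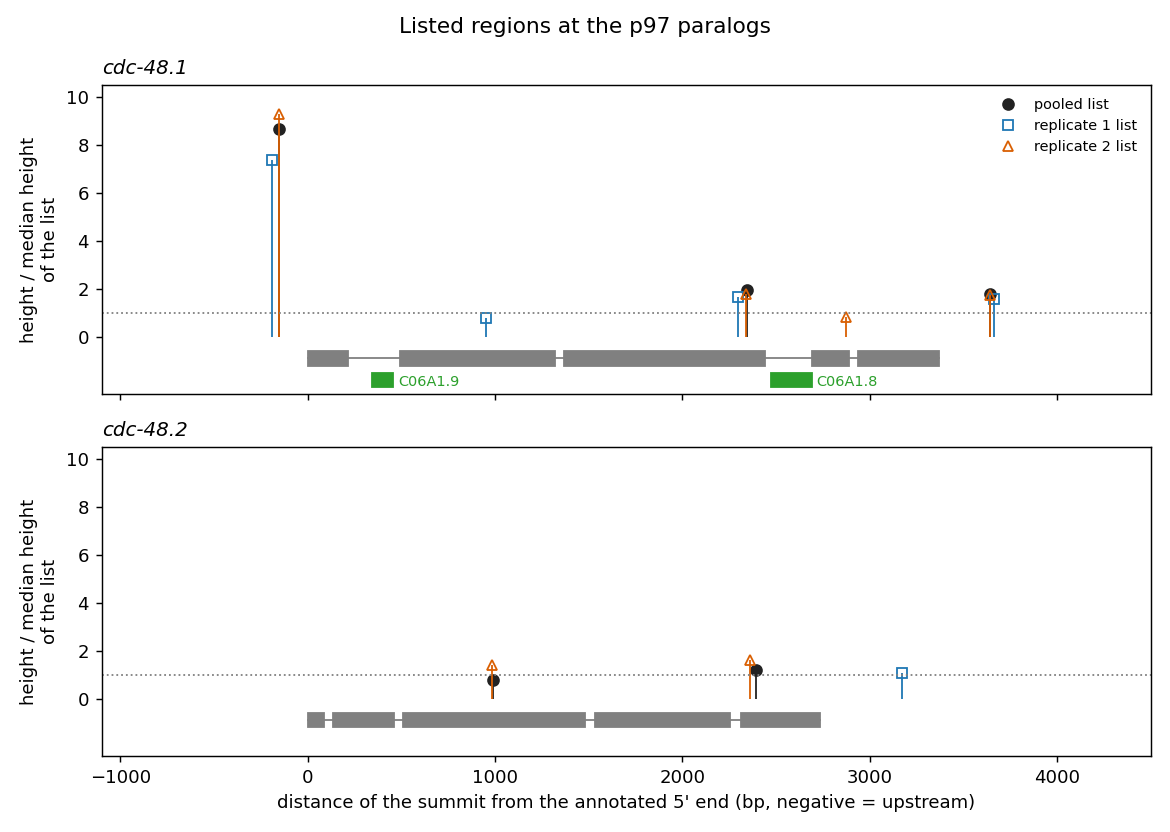
Regions with a summit in or within 1000 bp of cdc-48.1 (top) and cdc-48.2 (bottom), by distance of the summit from the annotated 5′ end (bp) and height as a multiple of the median height of the list; grey boxes are exons, green boxes snoRNA genes, and the dotted line marks a multiple of 1. The symbols upstream of cdc-48.1 stand between 7.37 and 9.31, all others at 1.96 or below, and no symbol lies upstream of cdc-48.2.

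Beyond the upstream region, cdc-48.1 had a further pair of regions that were found in all lists. The first, from 10560866 to 10561261, had its summit in exon 3, near the end of that exon at 10560968. The region ran on into intron 3 and overlapped part of the snoRNA gene C06A1.8, and so did the regions that both replicates listed there. Its height was 35.4 in the pooled list (rank 772), 15.4 in replicate 1 (rank 2465) and 16.7 in replicate 2 (rank 2004). Its summit lay 130 bp upstream of the 5′ end of the snoRNA gene C06A1.8 in the pooled list, 177 bp in replicate 1 and 132 bp in replicate 2. The second lay beyond the 3′ end of the gene, from 10559566 to 10559961, with a pooled height of 32.6 (rank 1034) and heights of 14.9 and 16.1 in replicates 1 and 2 (ranks 2815 and 2283). Its summit was 272 bp past the annotated end, and 293 and 273 bp in the replicates.

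These lower regions differed little between replicates. As multiples of the list median they were 1.72 ± 0.104 in exon 3 and 1.67 ± 0.0947 beyond the 3′ end (SD, n = 2 replicates), and the replicate summits were 45 and 20 bp apart. The upstream region was 4.43 times as high as the exon 3 region in the pooled list, 4.47 times in replicate 1 and 5.18 times in replicate 2. Neither lower region was kept in the authors' optimal list, whose lowest height was 43.6. Each replicate also listed 1 weak region that no other list overlapped, in exon 2 in replicate 1 (height 7.25, rank 26586) and in exon 4 in replicate 2 (7.65, rank 20751). Just outside the 1000 bp window, the pooled list held a region 1056 bp upstream of the 5′ end (17.4, rank 9728). Replicate 1 held one 1038 bp upstream (11.7, rank 7617) and one 1224 bp beyond the 3′ end (7.52, rank 24810).

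The snoRNA gene in intron 1, C06A1.9, had no such region close to it. The nearest summits were the upstream one, 497 bp before its 5′ end in the pooled list, and the weak exon 2 region of replicate 1, 611 bp after it. Among the 183 snoRNA genes that lie inside a protein-coding gene on the same strand, 28 (15.3%) had a summit within 200 bp of their 5′ end in all 3 lists, and C06A1.8 was 1 of them. No such share for other sites is given here, so this one is not read as high or low.

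At cdc-48.2 no list had a region within 500 bp of the 5′ end. The pooled list held 2 regions, both inside the gene and neither at its 5′ end. The higher, from 8140690 to 8141085 in exon 5, had a height of 21.3 and rank 4952, and its summit was 2392 bp from the 5′ end. The other, from 8139286 to 8139681 in exon 3, had a height of 14.3 and rank 16996 of 17335, next to the lowest listed height of 14.2.

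Both regions came back in only 1 replicate. Replicate 2 listed them with heights of 15.1 (rank 2912) and 13.2 (rank 4720), while replicate 1 listed no region with a summit inside cdc-48.2. The only region of replicate 1 in reach was 437 bp beyond the 3′ end of cdc-48.2, with a height of 9.92 (rank 12740), and it lies within the neighbouring gene ints-11, which encodes a subunit of the Integrator complex. Just outside the window, replicate 1 listed a region of height 12.7 (rank 5577) 1057 bp upstream of the 5′ end, and no other list had one between 1000 and 2000 bp from the gene. The lowest height in the list of replicate 1 was 6.78, so any weaker signal there would not be seen.

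Set side by side within each list, the highest region of cdc-48.1 was 7.36 times as high as that of cdc-48.2 in the pooled list, 6.93 times in replicate 1 and 5.75 times in replicate 2 (6.34 ± 0.835, SD, n = 2 replicates). For cdc-48.2 these are different regions, the one in exon 5 in the pooled list and in replicate 2, and the one beyond the 3′ end, inside ints-11, in replicate 1. The direction was fixed by the choice of cdc-48.1 and is not tested. The regions of cdc-48.1 that did not bring it into view, in exon 3 and beyond the 3′ end, were 1.66 and 1.53 times as high as the highest of cdc-48.2 in the pooled list. In replicate 1 their heights of 15.4 and 14.9 stood against 9.92, and in replicate 2 the ratios were 1.11 and 1.07. Leaving out its highest region could only bring cdc-48.1 closer to its paralog, so that is not read as a result. In replicate 2 the remaining regions of cdc-48.1 were nearly level with the highest of cdc-48.2.

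The deposited −log10 of the q-value, which grows with the strength of the call, rose with height among these regions in each list. It is therefore no separate support for the contrast. It was at the ceiling of the list for the upstream region of cdc-48.1, 2.97 in the pooled list, 2.48 in replicate 1 and 2.84 in replicate 2, a value shared by 470, 152 and 345 regions. For the exon 3 and 3′ regions of cdc-48.1 it was 1.73 and 1.28 in the pooled list. In replicate 1 these regions had 0.65 and 0.58, and in replicate 2 they had 1.2 and 1.065. At cdc-48.2 the pooled value was 0.255 in exon 5 and 0.0197 in exon 3.

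**Figure D2:**
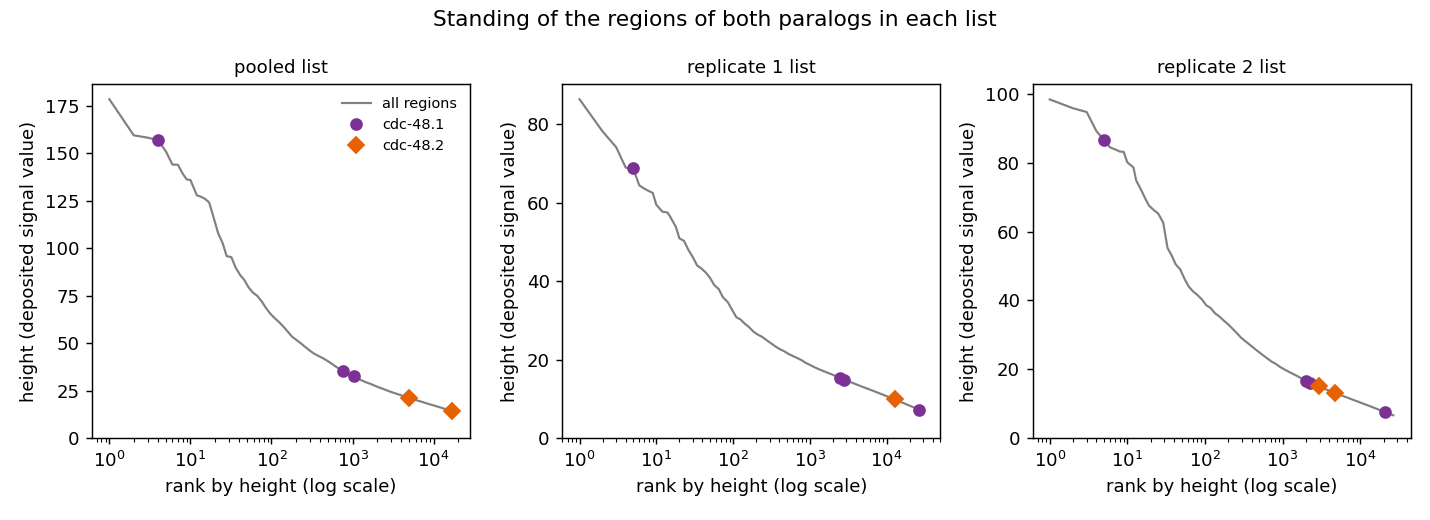
Height (deposited signal value) against rank by height (log scale) for all regions of the pooled list and of each replicate list (grey line), with the regions of cdc-48.1 as circles and those of cdc-48.2 as diamonds. One circle in each panel stands at rank 4 or 5, and all other symbols lie at rank 772 or lower in the order.

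How common such regions are across the genome sets the scale. A pooled region with its summit in the gene or within 1000 bp was found for 10552 of 19973 protein-coding genes (52.8%), and both paralogs are among them. In the replicate lists the shares were 72.2% and 65.7%, and 8684 genes (43.5%) had a region in all 3 lists, again with both paralogs. Having a region is thus no distinction of either gene. A peak of the optimal list lay at 542 genes (2.71%), and cdc-48.1 is 1 of them while cdc-48.2 is not; as the height of that peak led to the choice, nothing is read from it.

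By the height of its highest region, cdc-48.1 was exceeded by 3 genes in the pooled list (0.015% of all), by 5 in replicate 1 and by 3 in replicate 2. The cdc-48.2 gene was near the middle of genes with a region. Its 21.3 compares with a median of 20.3 over such genes in the pooled list, and 44.3% of them had a higher region. That share was 62.9% in replicate 1, where its 9.92 is below the median, and 23.8% in replicate 2, where its 15.1 is above the median of 11.1. The replicates therefore disagree on which side of the median cdc-48.2 stands.

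The number of regions was counted too. In the pooled list cdc-48.1 had 3, where the 3189 genes of like length (80 to 125% of its own) had a mean of 1.07 and 10.7% had at least 3. In each replicate it had 4, which 10.4% and 9.82% of such genes reached. These counts include the upstream region for which cdc-48.1 was chosen, while the other genes were not chosen for a region. The shares are therefore a description and are not read as a result. The 2 pooled regions of cdc-48.2 were reached by 24.5% of the 3795 genes of its length. Its 1 region in replicate 1 was reached by 77.8% of them and its 2 in replicate 2 by 38.6%.

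Since the paralogs are alike in sequence, stretches that occur more than once were counted; the placement of reads itself was not tested. Over each gene with 1000 bp on each side, 133 of 5343 stretches of 30 bases (2.49%) at cdc-48.1 occurred elsewhere in the genome. At cdc-48.2 these were 9 of 4706 (0.191%). None in the pooled upstream region of cdc-48.1 occurred a second time, nor any in its pooled 3′ region or in either pooled region of cdc-48.2. The wider upstream regions of the replicates were not counted separately. In the exon 3 region of cdc-48.1, 6 of 367 such stretches (1.63%) occurred elsewhere. The longest identical run between the paralogs, with 1000 bp on each side, was 35 bases, and it lies inside that region. The records used here do not state the read length.

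This run is shown because a read that lay within it would match both genes equally. It reads the same at chrII:10561136-10561170 (minus strand) in cdc-48.1 and at chrII:8140547-8140581 (plus strand) in cdc-48.2.

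shared run: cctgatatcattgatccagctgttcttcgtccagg

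Both copies lie in coding sequence, and in cdc-48.2 no pooled region covers it.

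The coding sequence under the exon 3 summit itself is shown beside the aligned stretch of cdc-48.2, to let the difference between the copies at the summit be seen, with differing bases in capitals, each read on the strand of its gene (chrII:10561036-10561095, minus strand, and chrII:8140622-8140681, plus strand).

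cdc-48.1 exon 3: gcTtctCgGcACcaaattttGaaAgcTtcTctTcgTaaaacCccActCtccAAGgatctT
cdc-48.2 aligned: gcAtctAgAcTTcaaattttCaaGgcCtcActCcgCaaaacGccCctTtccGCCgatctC

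Of these 60 bases 42 were the same and 18 differed, while 17 of the 20 residues they encode were the same. The pooled list placed no region over this stretch of cdc-48.2. The aligned position of the cdc-48.1 summit, 8140653, fell 37 bp before the start of the exon 5 region, and along the aligned coding sequence the summits of both genes were 176 bases apart. In replicate 2, whose regions are wider, the cdc-48.2 region did cover the aligned position. Between these summits both genes have an intron after the same aligned base, 2093. In cdc-48.1 it is intron 3, which holds C06A1.8, and in cdc-48.2 it is intron 4, of 59 bp. No other intron position was shared.

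**Figure D3:**
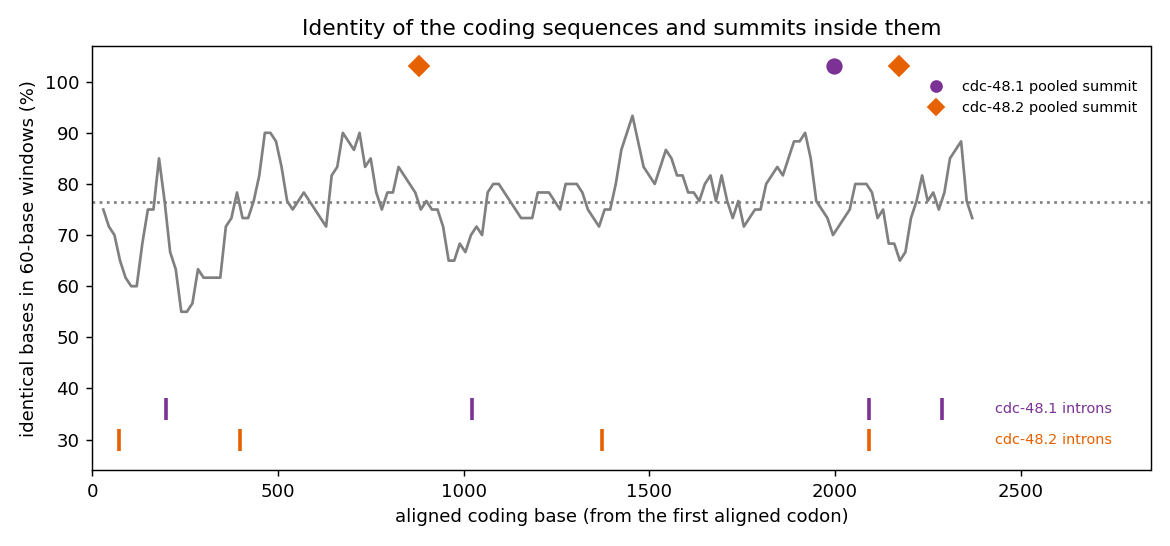
Identical bases (%) in 60-base windows along the aligned coding sequences of the paralogs (grey line; dotted line, 76.4% over all aligned bases), with intron positions as ticks and pooled summits inside coding sequence as symbols above. Both genes have a tick at base 2093, with a cdc-48.1 summit at 1997 before it and a cdc-48.2 summit at 2173 after it.

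The G and C content at the summits did not separate the paralogs. In 101-base windows it was 40.6% at the upstream summit of cdc-48.1, 47.5% in exon 3 and 34.7% beyond the 3′ end, and 47.5% and 41.6% at the exon 5 and exon 3 summits of cdc-48.2. The median over all pooled regions was 31.7%.

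The neighbouring genes share some of these regions. C06A1.6, a gene 704 bp upstream of cdc-48.1 on the same strand (10564112 to 10564678), ends 551 bp from the summit of the upstream region, which is the highest near it too. On the other side mnk-1, a kinase gene 4991 bp away, had a highest pooled region of 49.1. At cdc-48.2, ints-11 runs on the opposite strand (8141209 to 8143478) and overlaps the 3′ end of cdc-48.2 by 22 bp, so the exon 5 region also counts for ints-11. ctns-1, the gene for cystinosin on the other side, starts 1577 bp upstream and had a highest pooled region of 17.0. The lists carry no strand, so a region between such genes cannot be given to either.

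Genes with the most similar standing were sought over the log10 ranks of the highest region in the 3 lists, among 8682 other genes with a region in each. For cdc-48.1 these were C06A1.6, which shares its region at a distance of 0, then wwp-1 and icd-2 (both 0.445, pooled height 144.1), Y41G9A.17 (0.453, 159.6) and F19H6.5 (0.651, 136.0). wwp-1, for a HECT-type ubiquitin ligase, and icd-2, for a subunit of the nascent polypeptide-associated complex, share 1 region, whose summit is upstream of wwp-1. For cdc-48.2 they were ints-11 (distance 0, with the shared regions), ssu-2 (0.0359, pooled height 21.8), ins-17 (0.043, 21.5), Y32F6A.4 (0.0452, 21.2) and spp-13 (0.0611, 22.1).

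The partners of p97 were then examined in the same way. Of 13 cofactor and adaptor genes, 8 had a pooled region, against 52.8% of all genes, and none had an optimal peak, against 2.71% of all. The median highest height was 22.5. The highest were at ubxn-3, for a UBX-domain adaptor (38.4), at ufd-2, for a ubiquitin-chain elongation factor (35.0), and at ufd-3 (29.6), all with the summit 152 to 258 bp beyond the 3′ end. The next was ufd-1, whose product forms an adaptor with NPL-4 (24.7, 113 bp inside the 5′ end). Replicate ranks were far apart at ubxn-3 (10188 and 293) and ufd-3 (18254 and 3243), and closer at ufd-2 (2395 and 1793). No list had a region at npl-4.2. At ubxn-1, ubxn-4, ubxn-5 and atx-3 at least 1 replicate list had a region but the pooled list had none. These genes were named after their values were seen.

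Genes of endoplasmic-reticulum-associated degradation, in which p97 draws proteins out of the membrane, all had a pooled region (7 of 7, against 52.8% of all genes) and none had an optimal peak (2.71% of all). A region in all 3 lists was found for 6 of the 7, against 43.5% of all genes, as sel-1 had none in replicate 1. The median highest pooled height of the 7 genes was 26.4. The highest were those of the ubiquitin-conjugating enzyme genes ubc-6 (38.9, 257 bp upstream of the 5′ end) and ubc-7 (35.2), followed by hrdl-1 (28.0) and sel-1 (26.4), genes for a ubiquitin ligase and for an adaptor of such ligases.

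Among 13 related AAA ATPases 12 had a pooled region (52.8% of all genes did) and 10 had a region in all 3 lists (43.5% of all). The median highest pooled height was 26.4, and 1 gene had an optimal peak (2.71% of all). That gene was ymel-1, for a mitochondrial inner-membrane protease, with a height of 45.4 and a summit 2 bp from its 5′ end (20.2 and 33.2 in replicates 1 and 2). Next came atad-3 (37.5), a mitochondrial membrane ATPase, vps-4 (31.4), which takes apart ESCRT-III filaments, and figl-1 (31.1), a fidgetin-like severing enzyme. cdc-48.3, the more distant relative with a CDC-48 name and singled out here for it after values were seen, had a highest pooled height of 30.7 at its 3′ end.

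Of the 6 ATPase genes of the proteasome, the protease that takes up many p97 clients, 5 had a pooled region (52.8% of all genes did) and 1 an optimal peak (2.71% of all), with a median highest height of 34.8. rpt-1 had a height of 60.8 and rank 127, with 25.8 and 40.6 in replicates 1 and 2, and its summit lay 240 bp beyond the 3′ end. rpt-4 (42.1), rpt-3 (34.8) and rpt-2 (29.0) followed, also with summits 35 to 310 bp beyond the 3′ end. Ranks in replicates 1 and 2 were far apart at rpt-4 (4688 and 339) and rpt-2 (421 and 9730), and closer at rpt-3 (699 and 2677). Over all genes with a pooled region the median was 20.3. The highest value of the 4 lists, 60.8, is below the upstream region of cdc-48.1 at 156.9, and these lists were drawn up with earlier results known, so no list is called different from other genes.

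**Figure D4:**
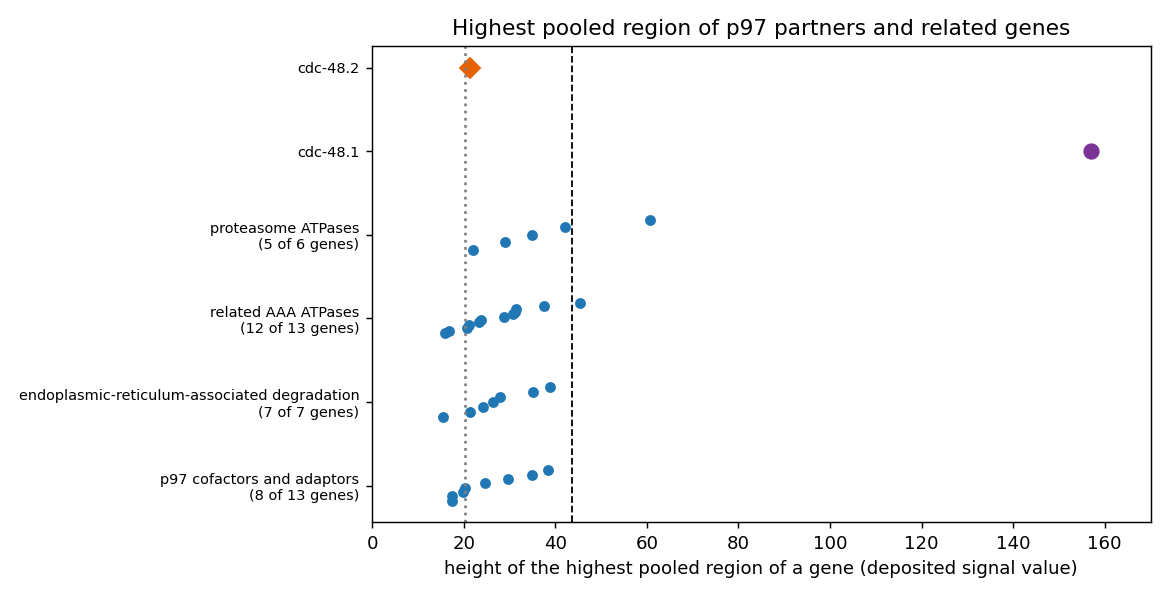
Height of the highest pooled region (deposited signal value) of each gene with such a region in the 4 gene lists (circles, spread vertically in order of height so that they can be told apart), of cdc-48.1 and of cdc-48.2; the dotted line is the median over all genes with a pooled region (20.3) and the dashed line the lowest optimal height (43.6). The cdc-48.2 symbol is at 21.3 near the dotted line, rpt-1 and ymel-1 lie past the dashed line, and cdc-48.1 is at 156.9.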

How the data were processed

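Regions came from the ce11 lists that the authors deposited for each replicate, for the pooled replicates and for the optimal set kept at their threshold of irreproducible discovery rate. The replicate and pooled lists are deposited as peaks and background together, the input to that threshold. Per the deposited records, each list was derived from alignments and 1 further file of unstated role. The aligner, the peak caller and any control subtraction were not given in the sources used here. The deposited signal value of a region (its height) has no stated scale and was ranked only within a list. As a further description served the −log10 q-value column, as deposited. No read counts were used, so depth is unknown. Lists on ce10 were not used.

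The gene annotation was Ensembl 115, bases were read from RefSeq's WBcel235 assembly, and all regions lay within its chromosome lengths. Coordinates are 1-based. Proteins were translated from the annotation and aligned globally (Biopython 1.88, BLOSUM62, gap costs 11 and 1), and bases were compared at aligned codons. Region assignment was tested on simulated data. The analysis used Python 3.11.15, pandas 2.3.3 and numpy 2.4.6.

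The genes, the 4 gene lists and the 6 words were chosen with earlier results of these data known. Named genes were both paralogs, their neighbours, up to 4 genes of each list with the highest pooled regions and any with an optimal peak, and the 5 genes most alike in rank. cdc-48.3, C41C4.17, C41C4.20, cofactor genes with no pooled region and the hosts of snoRNA genes were named after values were seen, and counts by gene length, copies of 30-base stretches, window ends and intron positions were added then. No tests were run. Alternatives changed the window to 500 or 2000 bp, the rule of assignment, the list, the reference point or the set of genes.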

Additional observations from a re-analysis of the deposited data

How the results depend on the processing

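Of 46 alternative values for counts, heights, ratios, standings and distances, 38 were within 1 SD of the replicates of the main value (for counts of regions, within 1.5 times). That SD is wide for the share of genes above cdc-48.2, whose main value of 23.4% became 44.3% among genes with a region. Counts and heights have no direction, and that of the ratio was fixed by the choice of cdc-48.1. Among genes with a region, cdc-48.2 stood below the median in replicate 1 and above it in replicate 2. Windows of 500 and 2000 bp and assignment by any overlap left both highest heights and their ratio the same. The 500 bp window could not change these heights, as both highest summits lie inside or within 500 bp of their genes. Merging overlapping regions left the counts the same. With the 2000 bp window or any overlap, cdc-48.1 had 4 pooled regions. The share of genes above cdc-48.1, 0.015%, was 0.0284% among genes with a region and 0.00501% when only summits within 500 bp of a 5′ end counted; for cdc-48.2 that last rule gave no value. With a single replicate, cdc-48.2 had 1 to 2 regions and cdc-48.1 had 4. The ratio was then 5.75 to 6.93, the share of genes above cdc-48.1 0.015 to 0.025%, and that above cdc-48.2 15.7 to 45.4%. The highest summit lay -193 to -154 bp from the 5′ end of cdc-48.1 and 2364 to 3171 bp from that of cdc-48.2, where without replicate 2 it is the region in ints-11. The cause was not tested. The list cutoffs limit what can be seen at cdc-48.2, and 2 replicates give an SD little precision.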

Other observations

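cdc-48.1 is 1 of 159 protein-coding genes that hold at least 1 snoRNA gene on their own strand, which were counted after values were seen. Its pooled region (156.9) is the highest of them, a place that follows from the height for which the gene was chosen. After it came wwp-1 (144.1), rol-3 (95.5), rpl-15 (90.4), a gene for a ribosomal protein, and pxn-1 (90.0), a peroxidasin gene. Of these hosts 142 (89.3%) had a pooled region and 34 (21.4%) an optimal peak with its summit in the gene or within 1000 bp, against 52.5% and 2.56% of the other 19814 genes. Among the 23 genes that hold at least 2 snoRNA genes, 22 (95.7%) had a pooled region and 5 (21.7%) an optimal peak. cdc-48.1 is among both groups. Host genes are longer, with a median of 5578 bp for the 159 hosts and 3372 bp for the 23, against 2019 bp for the other genes. More summits can therefore fall in host genes, and the part of length in these shares was not tested.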
